A study of Mus musculus with 3 samples.

Results

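The genes described here are the replication-dependent histone genes of the mouse autosomes and the H1 genes whose symbols follow the same naming, measured by whole-genome bisulfite sequencing in spermatogonia. They were taken from the RefSeq annotation of GRCm38.p6, the assembly that mm10 names, by their symbols: the older names Hist1h, Hist2h, Hist3h and Hist4h, or the newer names H1f, H2ac, H2bc, H3c and H4c with a number. This gave 71 of 20558 autosomal protein-coding genes, namely 10 H1, 18 H2A, 18 H2B, 12 H3 and 13 H4 genes, and 5 pseudogenes were left out. Germ cells were sorted at postnatal day 7 (P7) with an antibody to EpCAM from WT, *Pld6* KO and *Dnmt3l* KO (labelled Dnmt3L KO) testes, and 1 library per genotype was analysed. Both KO lines had been backcrossed to C57BL/6J. The paper counted *Pld6*+/+, *Pld6*+/- and *Dnmt3l*+/- mice as WT, and which of them gave the WT library is not stated. *Pld6* encodes a nuclease of piRNA biogenesis, and *Dnmt3l* encodes a cofactor of the de novo DNA methyltransferases. With 1 library each, the effect of a genotype and the variation from library to library cannot be told apart.

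Replication-dependent histone genes supply the nucleosome proteins of dividing cells during S phase. Most have no intron, and their mRNA ends in a conserved stem-loop instead of a poly(A) tail. They lie in clusters, often as divergent H2A and H2B genes that share a promoter. Some clustered genes are testis forms made in male germ cells: *H1f6* (older name *Hist1h1t*) encodes the spermatocyte linker histone H1t, *H2bc1* (*Hist1h2ba*) encodes TH2B, and *H2ac1* (*Hist1h2aa*) encodes TH2A. DNA methylation is placed across the male germ line genome before birth, and CpG-rich promoters generally escape it.

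Of the 71 genes, 66 lay in 4 clusters and 5 stood alone (*H1f0*, *H1f7*, *H1f8*, *H1f10* and *H4f16*). The Hist1 genes formed a cluster of 23 genes at chr13:21715711-22043658 and another of 31 genes at chr13:23531044-23934913. The Hist2 cluster held 10 genes at chr3:96219885-96270192, and the Hist3 cluster held 2 genes at chr11:58948911-58955192. RefSeq gave 65 of the 71 genes a single exon. There were 12 divergent H2A and H2B pairs, whose starts were separated by 163 to 280 bp. The sequences that set these genes apart are shown first, since the methylation values below are read over them.

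The stem-loop was searched on the coding strand in the 150 bases after the stop codon, as the letters CTTTTNAG between 4 bases that pair with each other. It was found in 63 of the 71 genes (88.7%), against 66 of all 20558 genes (0.321%), the histone genes included. All 3 testis forms carried it, and *H1f0*, *H1f7*, *H1f8* and *H1f10*, the H1 genes outside the clusters, did not hold these letters in that window. Of the 66 clustered genes 62 held them, and *H2bc21*, *H2ac22*, *H3c8* and *H4c1* did not. Only 6 different sequences occurred, and the commonest was that of 41 genes. The following 3 show the commonest form, the form of *H1f6* and *H2bc1*, and that of the H4 gene *H4c3*, in DNA letters from 5′ to 3′ on the coding strand of GRCm38.p6, with the loop and its neighbouring letters in capitals. They lie at chr13:23934891-23934906 (*H2ac1*, plus strand), chr13:23696525-23696540 (*H1f6*, plus strand) and chr13:23698089-23698104 (*H4c3*, minus strand).
H2ac1: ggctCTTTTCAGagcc
H1f6: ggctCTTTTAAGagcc
H4c3: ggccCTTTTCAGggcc

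The promoters are shown for 5 genes, as the 250 bases before the start (RefSeq, GRCm38.p6, 5′ to 3′ on the strand of the gene), with every CpG in capitals. *H1f4* is a replication-dependent linker histone gene (chr13:23622559-23622808, minus strand). *H2bc11* shares its promoter with the divergent *H2ac11* (chr13:22042948-22043197, plus strand). *H1f6* (chr13:23695561-23695810, plus strand) and *H2bc1* (chr13:23934157-23934406, minus strand) are testis forms, and *H1f8*, which encodes the oocyte linker histone, stands alone (chr6:115944681-115944930, plus strand).
H1f4: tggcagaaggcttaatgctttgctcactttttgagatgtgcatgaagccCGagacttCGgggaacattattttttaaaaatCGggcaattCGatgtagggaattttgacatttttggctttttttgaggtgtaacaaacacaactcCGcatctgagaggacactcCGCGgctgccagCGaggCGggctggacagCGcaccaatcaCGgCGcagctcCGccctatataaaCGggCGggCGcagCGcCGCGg
H2bc11: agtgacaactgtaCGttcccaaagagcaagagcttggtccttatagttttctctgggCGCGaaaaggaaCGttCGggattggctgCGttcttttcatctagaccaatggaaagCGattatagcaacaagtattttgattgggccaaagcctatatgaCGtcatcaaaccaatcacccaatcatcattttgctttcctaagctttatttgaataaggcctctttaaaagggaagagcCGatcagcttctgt
H1f6: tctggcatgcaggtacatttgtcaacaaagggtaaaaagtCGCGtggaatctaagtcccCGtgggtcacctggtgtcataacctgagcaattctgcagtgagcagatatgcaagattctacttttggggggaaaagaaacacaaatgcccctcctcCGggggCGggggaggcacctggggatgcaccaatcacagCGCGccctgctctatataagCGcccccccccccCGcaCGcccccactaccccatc
H2bc1: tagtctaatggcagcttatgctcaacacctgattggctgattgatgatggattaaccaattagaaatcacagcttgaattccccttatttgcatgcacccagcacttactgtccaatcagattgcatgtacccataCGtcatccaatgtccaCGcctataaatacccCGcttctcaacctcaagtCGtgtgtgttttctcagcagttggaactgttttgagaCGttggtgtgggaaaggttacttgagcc
H1f8: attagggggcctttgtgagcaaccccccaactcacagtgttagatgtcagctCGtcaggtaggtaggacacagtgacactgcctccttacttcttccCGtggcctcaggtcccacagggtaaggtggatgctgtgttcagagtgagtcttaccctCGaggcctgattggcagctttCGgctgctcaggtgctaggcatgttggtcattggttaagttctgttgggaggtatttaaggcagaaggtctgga

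These 5 promoters held 19, 9, 10, 5 and 4 CpG sites in the order shown. In the WT library none of the 57 calls on the *H1f4* promoter, of the 29 on that of *H2bc11*, of the 12 on that of *H1f6* and of the 16 on that of *H2bc1* was methylated, whereas 30 of the 31 calls on the *H1f8* promoter were. In the *Pld6* KO library the *H1f8* promoter had 24 methylated of 26 calls, the *H1f6* promoter 4 of 32, and the other three none of 61, 24 and 17. In the *Dnmt3l* KO library 1 of 4 calls on the *H1f8* promoter was methylated, and none of 17, 11, 6 and 3 on the other four. The letters CCAAT, on either strand, were present in 52 of the 66 histone promoters that the RefSeq table holds (78.8%), against 36.2% of the 16457 promoters in that table. The letters TATAAA, on either strand, were present in 29 of the 66 (43.9%), against 12.5% of all promoters. The letters CCGCCC, also searched, went the other way, with 21 of the 66 (31.8%) against 43.6% of all promoters. All 5 printed promoters hold CCAAT, and among them *H1f4* and *H2bc1* hold TATAAA. Of the 60 histone promoters with calls in WT, 53 had no methylated call, and the 2 with a level above 0.1 were those of *H1f8* and *H1f7* (0.20 on 10 calls). Some of these zeros rest on few calls, such as 1 for *H4c2* and 3 for *H1f3*. The same count was not made over all promoters, and other genes with CpG-rich starts were also near 0, as given below.

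The histone genes were almost free of methylation in all 3 libraries. The level of a gene is the share of methylated calls among the calls on its CpG sites, from 500 bp before its start to 500 bp after its end. In WT the median level of the 66 histone genes with at least 20 calls was 0.00412, against 0.655 over 19248 genes of the genome and 0.438 over the 1283 genes of at most 2 kb. The level was under 0.2 in 62 of the 66 (93.9%), against 8.49% of all genes and 35.2% of the short genes. No methylated call at all was seen in 30 of the 66 in WT, in 38 of 66 for *Pld6* KO and in 38 of 57 for *Dnmt3l* KO. For the genes of at most 2 kb, the lower quartile of the level was above 0 in each library (WT 0.102, *Pld6* KO 0.114, *Dnmt3l* KO 0.00847). A level of 0 is reached more easily at low depth. The median histone gene had 44 calls for *Dnmt3l* KO, against 119 for WT and 125 for *Pld6* KO. The larger *Dnmt3l* KO share alone therefore cannot show a loss of methylation.

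**Figure D1:**
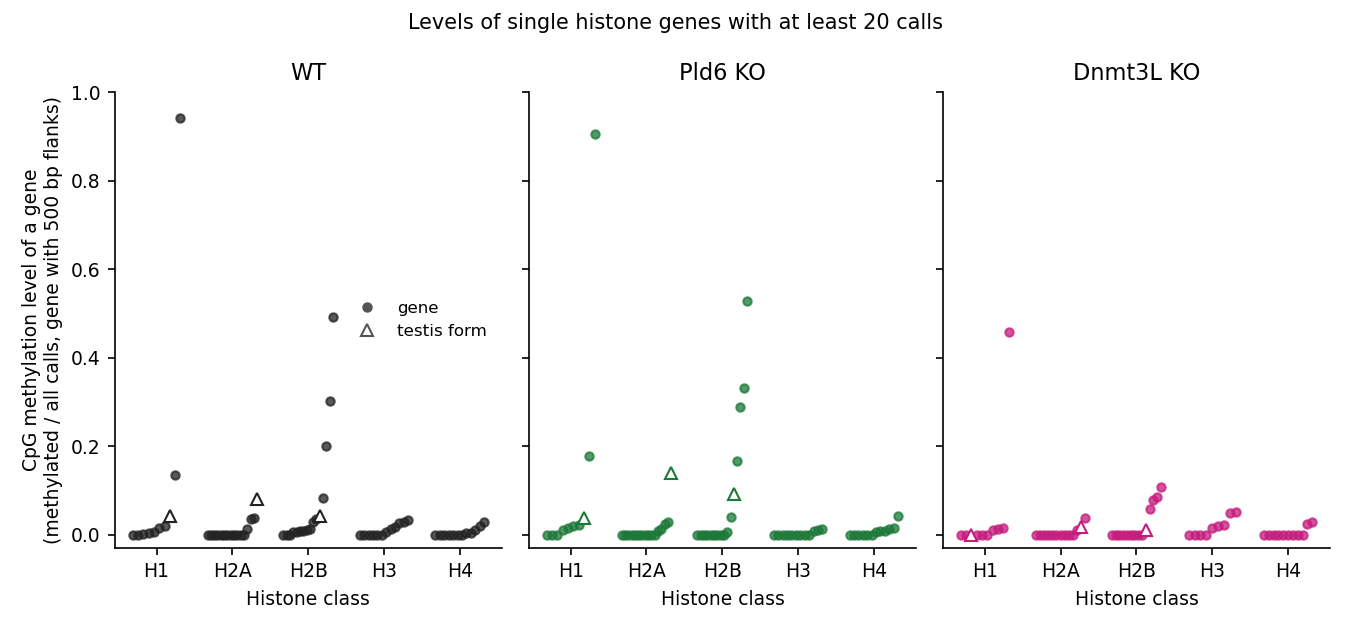
CpG methylation level (y axis, methylated over all calls) of each histone gene with at least 20 calls, by class (x axis), in the WT, *Pld6* KO and *Dnmt3l* KO libraries; circles are genes and triangles the 3 testis forms. Nearly all genes lie near 0 in each library, *H1f8* lies at 0.941, 0.904 and 0.457, and 3 H2B genes with long transcripts lie between 0.20 and 0.491 in WT.

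The KO libraries were then compared with WT. A gene was counted as lower where its level in a KO library was at least 0.3 below that in WT, over genes with at least 20 calls in both. In *Pld6* KO 0 of 66 histone genes were lower, against 0.125% of all genes and 0.726% of the genes of at most 2 kb. In *Dnmt3l* KO 2 of 57 were lower (3.51%), against 48.7% of all genes and 31.3% of the short ones. The 2 genes were *H1f8* and *H2bc6*. A gene with a WT level under 0.3 could not be counted as lower. Of the histone genes compared, 62 of 66 for *Pld6* KO and 53 of 57 for *Dnmt3l* KO lay under 0.2 in WT. Their low counts were thus largely set by their WT levels. The median of WT minus *Dnmt3l* KO was 0.00309 over the histone genes and 0.296 over all genes, and that of WT minus *Pld6* KO was 0 and -0.0222. Fisher's exact test on the calls, which compares the libraries and not the genotypes, found 5 histone genes lower in *Dnmt3l* KO at an adjusted p under 0.05 (*H1f8*, *H2bc6*, *H2bc22*, *H1f7* and *H2bc4*), against 92.8% of all genes, and 0 higher, against 0.0162%. In *Pld6* KO it found 0 lower, against 4.6% of all genes, and 1 higher (*H2bc21*), against 28.6%. The test treats the calls of 1 read as independent, so that its p-values can be too small. The count of genes lower by at least 0.3 was also made over the 500 bp on each side of the start. There 1 of 48 histone genes was lower in *Dnmt3l* KO, against 5.09% of all genes. In *Pld6* KO 0 of 65 were lower there, against 0.182% of all genes.

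Among the linker histone genes, those of the clusters that are no testis form were close to 0. *H1f2* had no methylated call in any library (183 calls for WT, 247 for *Pld6* KO and 104 for *Dnmt3l* KO). *H1f3* had none in WT (224 calls) and *Pld6* KO (204), and a level of 0.0139 in *Dnmt3l* KO (72 calls). *H1f4* had a level of 0.00386 in WT and 0 in both KO libraries, and *H1f5* had 0.00552, 0.0142 and 0 in WT, *Pld6* KO and *Dnmt3l* KO. *H1f1* stood slightly above them, at 0.0184 for WT, 0.0183 for *Pld6* KO and 0 for *Dnmt3l* KO. *H1f0*, which encodes a linker histone of differentiated cells, and *H1f10*, which encodes H1x, lay outside the clusters and were as low. *H1f0* had levels of 0.0151, 0.0211 and 0.00952, and *H1f10* had 0.00204, 0.0108 and 0, in WT, *Pld6* KO and *Dnmt3l* KO.

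*H1f8* was the exception. Its level was 0.941 (95% interval 0.902 to 0.965, 220 calls) for WT, 0.904 (0.866 to 0.932, 313 calls) for *Pld6* KO and 0.457 (0.360 to 0.558, 94 calls) for *Dnmt3l* KO. The interval of the *Dnmt3l* KO library lay below both others, and the difference from WT was 0.483 (0.376 to 0.583; adjusted p = 1.73e-20, Fisher's exact test between the libraries). The difference between WT and *Pld6* KO was 0.0368, with an interval from -0.0115 to 0.0816. Within *Dnmt3l* KO, the 500 bp on each side of its start had a level of 0.259 on 27 calls, and its coding sequence 0.562 on 16 calls. The gene held 1.35 CpG sites per 100 bp of its window, against a median of 4.70 over the histone genes. *H1f7*, which encodes a linker histone of spermatids, came next among the H1 genes, with 0.136 (0.0928 to 0.194, 177 calls) for WT, 0.177 (0.132 to 0.233, 220 calls) for *Pld6* KO and 0.0118 (0.00208 to 0.0637, 85 calls) for *Dnmt3l* KO. The *Dnmt3l* KO interval again lay below both others (difference from WT 0.124, adjusted p = 0.00069, Fisher's exact test between the libraries).

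**Figure D2:**
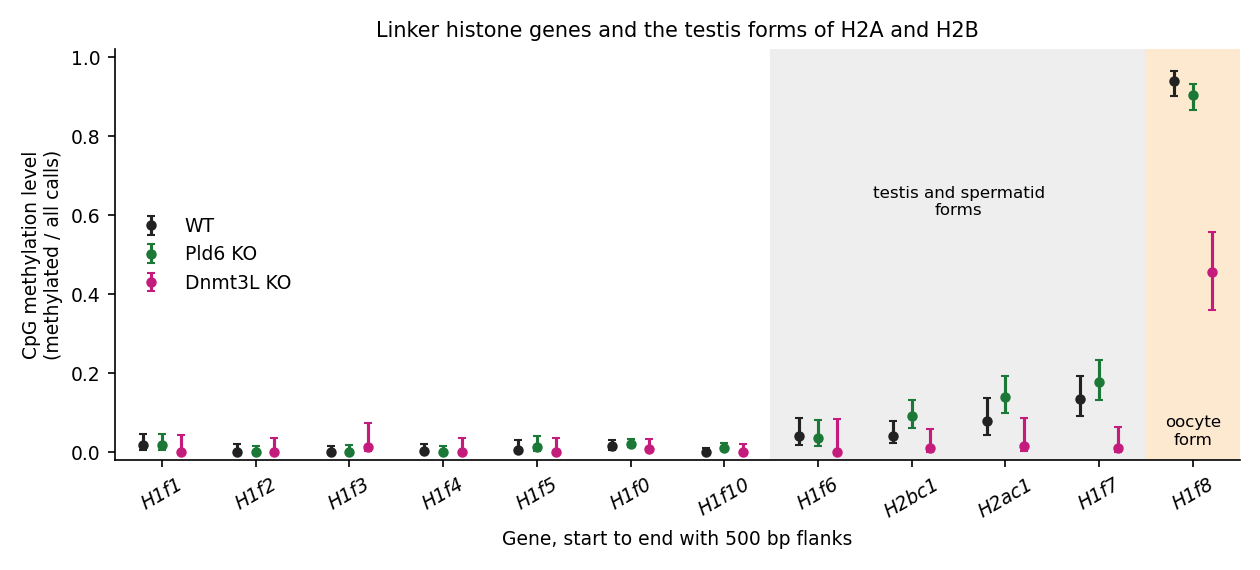
CpG methylation level (y axis) of the 10 linker histone genes and of *H2bc1* and *H2ac1* (x axis) in the 3 libraries, with 95% Wilson intervals as bars; grey marks the testis and spermatid forms and orange the oocyte form. The 7 genes at the left lie at or under 0.0211 in each library, the 4 in grey between 0.0368 and 0.177 in WT and *Pld6* KO and at or under 0.0164 in *Dnmt3l* KO, and *H1f8* far above.

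The testis forms were low as well, at or under 0.140 in each library. *H1f6* had a level of 0.0414 (145 calls) for WT, 0.0368 (136 calls) for *Pld6* KO and 0 (41 calls) for *Dnmt3l* KO. *H2bc1* had 0.0429 (210 calls), 0.0923 (260 calls) and 0.0108 (93 calls). *H2ac1* had 0.0797 (138 calls), 0.140 (214 calls) and 0.0164 (61 calls). Each gene was lowest in *Dnmt3l* KO, and for each of the 3 the interval of that library overlapped that of WT.

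Pooled, the 3 testis forms had 22 methylated of 408 calls in WT (0.0539, 0.0359 to 0.0803), 44 of 476 in *Pld6* KO (0.0924, 0.0696 to 0.122) and 2 of 151 in *Dnmt3l* KO (0.0132, 0.00364 to 0.0470). The 63 other clustered genes had 0.0805, 0.0948 and 0.0244 over their longest transcripts, above the testis forms in each library. Over their shortest transcripts with the same flanks, a window chosen after seeing the data, they had 0.00981, 0.0124 and 0.00803, so that the direction depends on the window. Against the short windows the testis forms were higher by 0.0441 (0.0259 to 0.0706) in WT and by 0.0801 (0.0570 to 0.110) in *Pld6* KO, while the difference of 0.00522 in *Dnmt3l* KO had an interval that included 0 (-0.00545 to 0.0391). A single clustered gene that is no testis form, *H2bc21*, had 0.0823 in WT and 0.166 in *Pld6* KO, above each testis form. These are 3 genes in 1 library each, 2 of them with overlapping windows, and no test was made over them. WT minus *Pld6* KO was -0.0385 (-0.0730 to -0.00362) over the 3, so that *Pld6* KO was the higher. The *Pld6* KO library was also the higher over the autosomes (0.724 against 0.704), whereas the paper's averages put WT slightly above *Pld6* KO. WT minus *Dnmt3l* KO was 0.0407 over the 3, with an interval from 0.0024 to 0.0687. For single testis forms Fisher's exact test between the libraries gave adjusted p-values from 0.111 to 1 for *Pld6* KO and from 0.116 to 0.353 for *Dnmt3l* KO.

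Few of the methylated calls of the TH2A and TH2B genes lay between their starts, but few of all their calls lay there either. The pair had 263 calls in WT and 340 in *Pld6* KO over its windows. The 280 bp between *H2bc1* and *H2ac1* had no methylated call among 28 for WT, 2 among 35 (0.0571) for *Pld6* KO and none among 5 for *Dnmt3l* KO. The *H2ac1* coding sequence had a level of 0.179 on 56 calls for WT, 0.193 on 109 calls for *Pld6* KO and 0 on 18 calls for *Dnmt3l* KO. The *H2bc1* coding sequence was lower, at 0.0145 on 69 calls, 0.0395 on 76 calls and 0 on 29 calls. In *H1f6* the 500 bp before the start had 0.120 on 25 calls for WT, 0.122 on 41 calls for *Pld6* KO and 0 on 10 calls for *Dnmt3l* KO, and its coding sequence 0.0263, 0 and 0. The calls are few, and CpG sites of 1 read share its fate.

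Among the H2A genes that are no testis form, 12 of the 15 with at least 20 calls in WT had no methylated call. *H2aw* (276 calls) and *H2ac20* (241 calls) had a level of 0 in WT; *H2aw* had 0.0127 in the *Pld6* KO library and 0.0111 in the *Dnmt3l* KO library, and *H2ac20* had 0 in both. The highest of these was *H2ac7*, with 0.0370 on 54 calls in WT and 0 in both KO libraries (67 and 22 calls). Pooled over these genes, the level was 0.00393 for WT, 0.00525 for *Pld6* KO and 0.00381 for *Dnmt3l* KO.

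The H3 and H4 genes, which encode the pair of core histones at the centre of the nucleosome, were low as well. The 12 measured H3 genes lay between 0 and 0.0336 in WT; *H3c11* was the highest, with 0.0336 (119 calls) for WT, 0 (63 calls) for *Pld6* KO and 0.0476 (21 calls) for *Dnmt3l* KO, followed by *H3c3* with 0.0282, 0.0127 and 0.050. *H3c7* had no methylated call in any library, and *H3c8* had none in WT (101 calls) and *Pld6* KO (143 calls) and 0.0159 for *Dnmt3l* KO (63 calls). The 12 measured H4 genes lay between 0 and 0.0287 in WT. *H4c1* was the highest, with 0.0287 in WT (174 calls) and 0 in both KO libraries (189 and 21 calls), and *H4c9* had 0.0189, 0.00893 and 0.0278. *H4c8* had no methylated call among 160, 179 and 70, and *H4c4* none among 91 and 120 in WT and *Pld6* KO and 0.0244 for *Dnmt3l* KO (41 calls). Pooled levels were 0.0104, 0.00298 and 0.0123 for H3 and 0.00668, 0.00438 and 0.00408 for H4, in WT, *Pld6* KO and *Dnmt3l* KO.

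The H2B class had the highest pooled level, 0.175 for WT, 0.210 for *Pld6* KO and 0.0477 for *Dnmt3l* KO. RefSeq gives 3 measured H2B genes a long spliced transcript besides the short one, and their windows reach far into the neighbouring DNA. Over the shortest transcript of each gene the H2B class had 0.0191, 0.0341 and 0.0129. *H2bc6*, 37455 bp long with its longest transcript, had a level of 0.491 (810 calls) for WT, 0.529 (938 calls) for *Pld6* KO and 0.108 (332 calls) for *Dnmt3l* KO (difference of *Dnmt3l* KO from WT 0.383, adjusted p = 3.87e-37, Fisher's exact test between the libraries). Over its short transcript with the same flanks it had 0 of 129 calls methylated for WT, 0.00633 for *Pld6* KO and 0.0256 for *Dnmt3l* KO, while the rest of its window had 0.584, 0.635 and 0.119. *H2bc22* went from 0.301 and 0.331 in WT and *Pld6* KO to 0.0845 in *Dnmt3l* KO over the long window (adjusted p = 0.0002, Fisher's exact test between the libraries), with 0 methylated of 89 WT calls over the short transcript. *H2bc4* had 0.20, 0.288 and 0.0779 over the long window (adjusted p for *Dnmt3l* KO = 0.0116, Fisher's exact test between the libraries), with 0 of 146 WT calls over the short transcript. In all 3 genes the methylated WT calls lay outside the short transcript and its flanks.

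The other H2B genes held few methylated calls. *H2bc11* had none among 120, 125 and 24 calls and *H2bc8* none among 98, 103 and 48, in WT, *Pld6* KO and *Dnmt3l* KO. *H2bc13* had 0.0276 on 145 calls in WT and 0 in both KO libraries. *H2bc21* of the Hist2 cluster, whose single exon runs to 2667 bp, had 0.0823 (231 calls) for WT, 0.166 (295 calls) for *Pld6* KO and 0.0574 (122 calls) for *Dnmt3l* KO, and was the histone gene higher in *Pld6* KO by Fisher's exact test between the libraries (adjusted p = 0.021). Up to the end of its coding sequence it had 0 of 132 calls methylated for WT, 0.00633 for *Pld6* KO and 0 for *Dnmt3l* KO. From there to 500 bp past its end it had 0.192 on 99 calls, 0.350 on 137 calls and 0.127 on 55 calls.

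The spaces between the genes of a cluster were methylated in WT and *Pld6* KO. They were taken as the cluster's DNA outside the windows of every RefSeq gene, 423 kb in all with 3660 CpG sites. Their level was 0.575 (0.563 to 0.587) for WT, 0.614 (0.604 to 0.625) for *Pld6* KO and 0.176 (0.163 to 0.191) for *Dnmt3l* KO, a difference of 0.399 (0.380 to 0.417) between WT and *Dnmt3l* KO. The clustered histone genes, over their shortest transcripts with flanks, had 0.0125, 0.0176 and 0.00836 in the same libraries. The spaces held 0.865 CpG sites per 100 bp, against 3.09 in the histone gene windows from start to end. Those windows include the long H2B transcripts, unlike the shortest transcripts just given.

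By cluster, the spaces of the Hist1 cluster at the lower coordinates had 0.514, 0.540 and 0.141, and those of the other Hist1 cluster 0.645, 0.697 and 0.212, in WT, *Pld6* KO and *Dnmt3l* KO. The Hist2 spaces had 0.573, 0.652 and 0.222. The Hist3 spaces rested on 58 calls for WT, 58 for *Pld6* KO and 28 for *Dnmt3l* KO, and had 0.828, 0.603 and 0.0357. In each cluster the *Dnmt3l* KO interval lay below both others. The 31 tRNA genes that RefSeq places in the clusters were low like the histone genes: their windows outside those of the histone genes had 0.0446 on 1883 calls for WT, 0.0659 on 2094 calls for *Pld6* KO and 0.00983 on 814 calls for *Dnmt3l* KO.

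**Figure D3:**
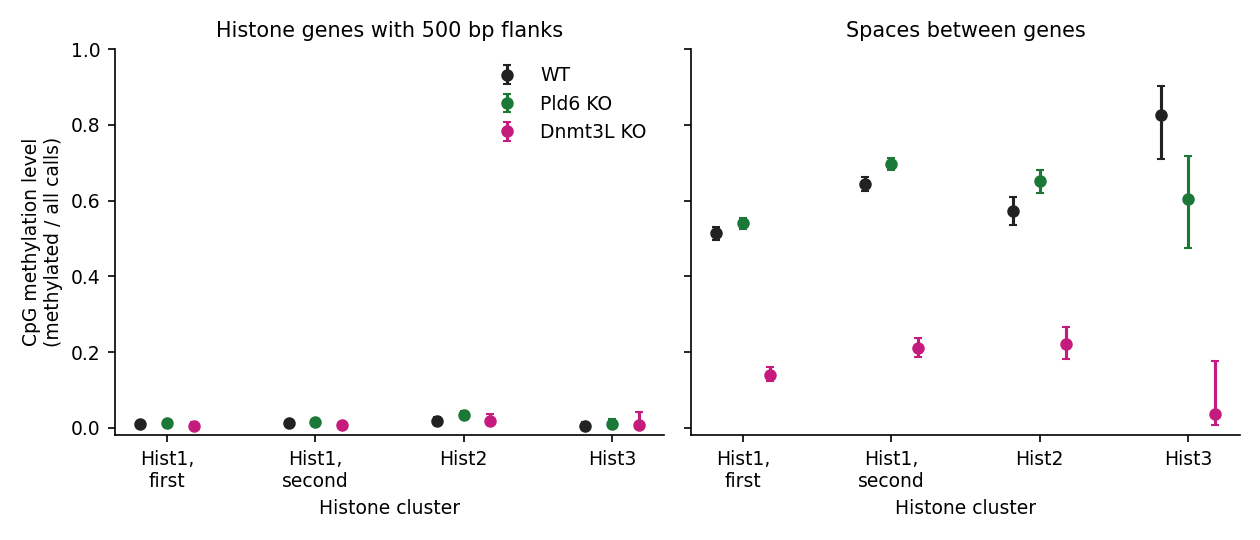
CpG methylation level (y axis) of the histone genes over their shortest transcripts with 500 bp flanks (left) and of the spaces between genes (right) in the 4 clusters (x axis), with 95% Wilson intervals as bars. The genes lie between 0.00448 and 0.0335 in each cluster and library, and the spaces between 0.514 and 0.828 in WT and *Pld6* KO and between 0.0357 and 0.222 in *Dnmt3l* KO.

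The change from genes to spaces took place within about 2 kb. CpG sites of the clusters outside other genes' windows were grouped by their distance from the shortest transcript of the nearest histone gene. Sites inside a long H2B transcript but outside the short one were thus grouped by distance too. Within 250 bp the level was 0.0116 for WT, 0.00742 for *Pld6* KO and 0.00176 for *Dnmt3l* KO, and from 250 to 500 bp it was 0.0216, 0.0222 and 0.0202. From 500 to 1000 bp it was 0.109 (0.0908 to 0.131), 0.172 (0.148 to 0.198) and 0.0239 (0.0121 to 0.0464). From 1 to 2 kb WT had 0.598 and *Pld6* KO 0.550, against 0.0871 in *Dnmt3l* KO, and from 2 to 5 kb they had 0.711, 0.713 and 0.185. Beyond 20 kb the levels were 0.544, 0.603 and 0.178. The WT and *Dnmt3l* KO intervals overlapped within 500 bp of a gene, and were apart at every distance from there on. Overlap does not mean that the levels were equal. WT minus *Dnmt3l* KO was 0.00986 (0.000641 to 0.0169) within 250 bp, and 0.00139 (-0.023 to 0.0175) from 250 to 500 bp.

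**Figure D4:**
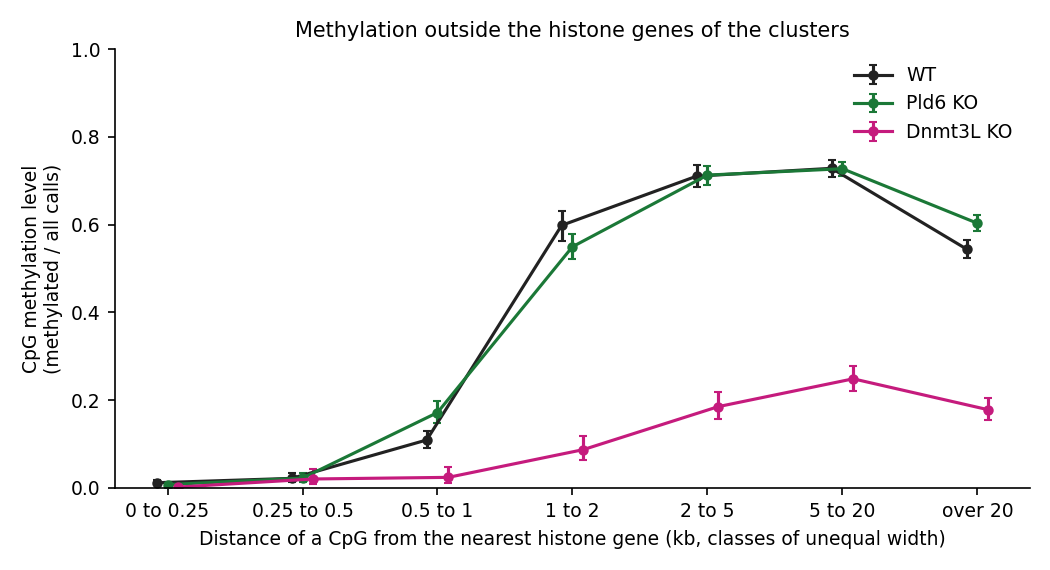
CpG methylation level (y axis) against the distance from the shortest transcript of the nearest histone gene (x axis, classes of unequal width) in the 3 libraries, with 95% Wilson intervals as bars. WT and *Pld6* KO rise from 0.0222 or less within 500 bp to 0.598 and 0.550 at 1 to 2 kb, and *Dnmt3l* KO stays at or under 0.249.

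Other genes with CpG-rich starts were also near 0. Of the 71 histone genes, 66 had at least 40 CpG sites in the 500 bp on each side of the start. The other genes with 40 to 59 sites there had a WT median of 0.00625 (3472 genes measured), those with 60 to 79 sites 0.00465 (3299 genes), and those with 80 or more 0.00336 (3313 genes). The histone genes of the same 3 classes had a WT median of 0 (25, 26 and 10 genes measured). The 2 histone genes with under 20 sites went opposite ways in WT: *H1f8* had a level of 0.931 around its start and *H3c7*, with 18 sites, had 0 on 59 calls. Other genes with so few sites had a WT median of 0.773 (3097 genes measured).

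The genes that serve the histone supply were methylated along their bodies in WT and low at their starts. This list of 14 holds *Npat*, the coactivator of histone transcription, *Slbp*, which binds the stem-loop, *Casp8ap2*, *Lsm10*, *Lsm11*, *Zfp473*, *Hinfp* and *Eri1* of histone transcription and RNA processing, and the chaperone genes *Nasp*, *Asf1a*, *Asf1b*, *Hira*, *Chaf1a* and *Chaf1b*. From start to end with flanks, 0 of 14 were lower by at least 0.3 in either KO library, against 0.125% of all genes for *Pld6* KO and 48.7% for *Dnmt3l* KO. The median of WT minus *Pld6* KO was -0.0401, against -0.0222 over all genes, and that of WT minus *Dnmt3l* KO was 0.237, against 0.296. At 500 bp on each side of the start, all 14 had a WT level under 0.2, as did 81.8% of the 15914 genes measured there in WT and *Pld6* KO. The highest was *Nasp*, with 0.150 on 20 calls for WT, 0.50 on 22 calls for *Pld6* KO and 0 on 6 calls for *Dnmt3l* KO, and its WT minus *Pld6* KO was -0.35 (-0.566 to -0.0646). *Npat* had 0.527, 0.625 and 0.296 over the gene and 0.00493, 0 and 0 at its start, in WT, *Pld6* KO and *Dnmt3l* KO. Of 9 genes for replication-independent histones, 1 was lower by at least 0.3 in *Dnmt3l* KO and 0 in *Pld6* KO, against the same 48.7% and 0.125% of all genes. It was *Macroh2a2*, with 0.679 for WT, 0.701 for *Pld6* KO and 0.338 for *Dnmt3l* KO. The H2A.Z gene *H2az1* and the H2A.X gene *H2ax*, which are short, had WT levels of 0.0204 and 0.0129 over the whole gene.

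Part of the histone gene sequence was without calls. At least 20 calls were reached in 66 genes for WT, 66 for *Pld6* KO and 57 for *Dnmt3l* KO. *H2ac23*, *H2bc23*, *H2ac24* and *H4bc24* (older name *Hist1h2br*, an H2B gene) had no call in any library, and *H4c17* had 11 in WT. For each CpG site the surrounding 79 bases, the longest read left after trimming, were compared with all histone gene windows. They recurred in another place for 100% of the CpG sites in the windows of the 4 genes without calls, and for 80.6% of those of *H4c17*. Over all histone genes 38.8% of the sites were of this kind, and 10.6% of them had a call for WT, 12.5% for *Pld6* KO and 6% for *Dnmt3l* KO. Of the other sites, 79.7%, 85.6% and 56.8% had one. The share of coding sites that recurred was 8.92% for H1, 65% for H2A, 60% for H2B, 68.7% for H3 and 47.7% for H4. The levels given above therefore rest mostly on the sites that do not recur. Where they could be compared in WT, the sites that recur had a level of 0.00985 and the others 0.0406, but the 2 groups do not hold the same genes. For coding sites the direction differed by class. Recurring sites were higher for H2A (0.0161 against 0.0131) and H3 (0.0429 against 0.00269). They had 0 for H1, H2B and H4, against 0.0534, 0.0114 and 0.00298.

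**Figure D5:**
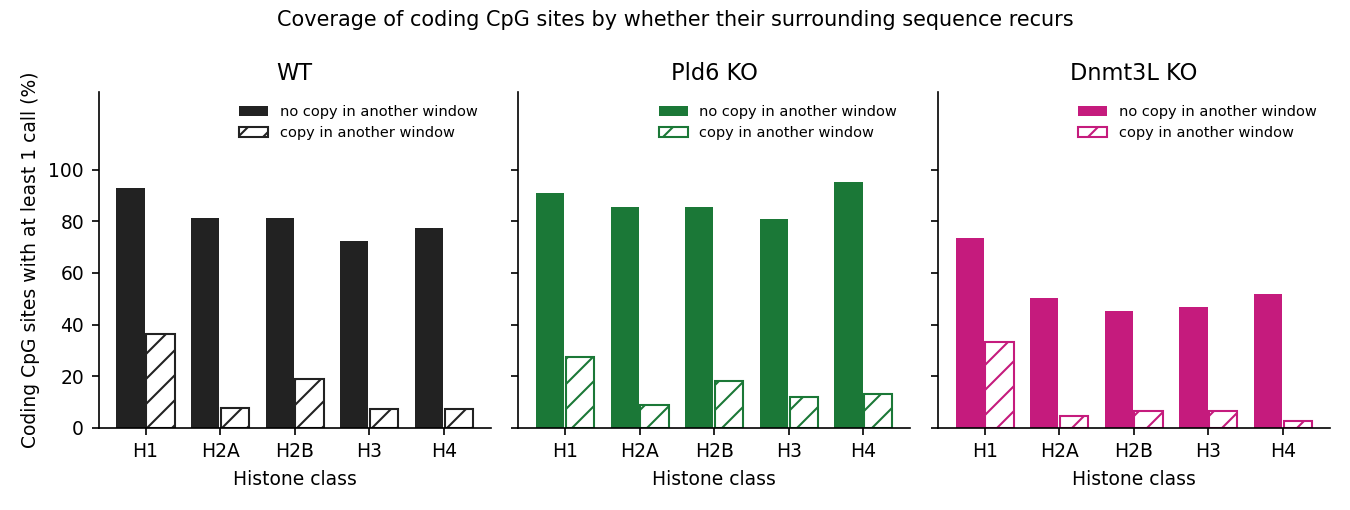
Share of coding CpG sites with at least 1 call (y axis, percent) by histone class (x axis) in the 3 libraries; filled bars are sites whose surrounding 79 bases occur once among the histone gene windows and hatched bars sites where they recur. In WT 72.3% to 92.9% of the former and 7.12% to 36.4% of the latter had a call.

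The depth was 43757722 calls for WT, 64076569 for *Pld6* KO and 19289688 for *Dnmt3l* KO, or 2.10, 3.08 and 0.926 calls per autosomal CpG site, and a histone gene had a median of 119, 125 and 44 calls. The level over all autosomal CpG sites was 0.704, 0.724 and 0.303. In the paper's averages over uniquely mapped reads WT lay slightly above *Pld6* KO, and *Dnmt3l* KO lay higher than here. The paper names biological replicates of each genotype for bisulfite sequencing. The sorted cells were checked by imprinted regions: the start of *Kcnq1ot1*, unmethylated in male germ cells, had 0.0780, 0.0700 and 0.0154, and the region 2 to 4 kb upstream of *H19*, methylated in male germ cells, had 0.859, 0.884 and 0.148. The *Kcnq1ot1* intervals were 0.0441 to 0.134 for WT and 0.0441 to 0.109 for *Pld6* KO, so that some somatic cells may remain. Whether such cells add to low levels, such as those of the testis forms, was not tested. The *Dnmt3l* KO library had low methylation over the whole genome, so that its *H19* value cannot check the sorted cells. Intervals cover counting error only.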

How the data were processed

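PBAT (post-bisulfite adaptor tagging) libraries of P7 spermatogonia were read as single-end reads of 100 bases. The authors cut 6 bases from the front and 15 from the end of a read, dropped low-quality stretches, and kept unique Bismark matches to mm10. Removal of duplicate reads is not stated. For each CpG site the authors deposited counts of methylated and unmethylated calls and their ratio, the methylation level as a fraction. The counts were used here.

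Every autosomal site lay at a CpG of the RefSeq genome. Calls were pooled over a gene window or space, with 95% Wilson intervals for levels and Newcombe intervals for differences. Fisher's exact tests (scipy 1.17.1) were two-sided and Benjamini-Hochberg adjusted over all autosomal protein-coding genes with at least 20 calls in both libraries. Clusters had gaps of at most 500 kb. Calls of 1 read or 1 PCR duplicate are not independent. Genes were named as follows: the testis forms, all H1 genes, and, among genes with at least 20 calls in each of the 3 libraries, the 2 highest and 2 lowest WT levels of each class, the 5 largest falls in each KO library and the 3 largest rises in *Pld6* KO. *H2bc7*, left out of this by 19 calls in *Dnmt3l* KO, had 0.0354 in WT (113 calls) and 0 in both KO libraries (98 and 19 calls). The other genes named were chosen after their values were seen. The members and lists were chosen with earlier results of these data known. The procedure was tested on simulated calls drawn independently, which leaves linked calls of 1 read untested. Sequences came from RefSeq.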

Additional observations from a re-analysis of the deposited data

How the results depend on the processing

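No paired analysis was possible because there is 1 library per genotype. The pooled WT and *Pld6* KO levels of the testis forms stayed within their intervals under every alternative, while their *Dnmt3l* KO level, 0.0132, became 0 without the 500 bp flanks and at the gene start only. Against the other clustered genes the testis forms were lower over the longest transcripts and higher over the shortest. No alternative turned the sign of a difference of at least 0.3. The WT level of the pooled histone genes was 0.0914, and became 0.123 without the 500 bp flanks, 0.0217 over the gene start only, 0.104 as the mean of site levels, 0.145 without coding sites, 0.0791 with clustered genes only and 0.0391 over the shortest transcripts, an alternative chosen after seeing the data. WT minus *Dnmt3l* KO, 0.0582, became 0.0759 without flanks, 0.0131 at the start only, 0.0991 without coding sites and 0.0171 over the shortest transcripts. WT minus *Pld6* KO, -0.0185, became 0.000751 at the start only and -0.00262 as the mean of site levels.

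The WT level of the spaces, 0.575, became 0.381 when the flanks were counted to them, 0.714 with flanks of 1000 bp, 0.489 when histone windows were reduced to the gene start, 0.598 as the mean of site levels and 0.495 when other genes were not excluded. WT minus *Dnmt3l* KO became 0.262, 0.502, 0.339 and 0.328 without flanks, with flanks of 1000 bp, with windows reduced to the start and with other genes not excluded. WT minus *Pld6* KO, -0.0393, became -0.0029 with flanks of 1000 bp, -0.0161 as the mean of site levels and -0.061 when other genes were not excluded. The number of histone genes lower in *Dnmt3l* KO was 2, 5 by Fisher's exact test and 1 (*H1f8*) over the shortest transcripts. The *Dnmt3l* KO library had the fewest calls, so that a level of 0 there often rested on few calls.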
